A study of Mus with 3 samples.

Results

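The 34 genes described here encode the glucose and lactate transporters, the enzymes and regulators of glycolysis, the hypoxia-inducible factor HIF-1α with its oxygen sensors, and widely used targets of the hypoxia response. They form a list of named genes, and all 34 were found among the 32285 genes of the expression matrix. Glycolysis converts glucose to pyruvate, and activated T cells and many tumor cells turn much of that pyruvate into lactate even when oxygen is present. When oxygen is low, prolyl hydroxylases no longer mark HIF-1α for destruction, and HIF-1α then drives transcription of most glycolytic genes and of genes for angiogenesis, mitophagy and collagen hydroxylation. In tumors this program is found in malignant cells, macrophages and T cells alike, so the same genes can be followed from one cell type to the next.

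MC38 tumors, grown from a mouse colon carcinoma line, were placed in mice of 3 genotypes, WT, RARα-KO and RARα-TG, and the tumors were collected on day 16. In RARα-KO mice (dLck-Cre×Rara L/L) the retinoic acid receptor RARα is deleted by a Cre under the distal Lck promoter, which acts in T cells after their selection. RARα-TG mice (CD2-Rara) carry a Rara transgene under the CD2 promoter, which is active in T cells and other lymphocytes, and the WT strains of the study were C57BL/6 and dLck-Cre mice, without a statement of which was used for these tumors. Sorted T cells and total tumor cells of each genotype were stained with 1 hashtag antibody, pooled and sequenced together as 5′ single-cell RNA with T cell receptors. The labels name spleen and activated naive CD8 T cells as the source, whereas the protocol and the cells themselves are those of a tumor. Most mice of the study were age-matched young adults, of both sexes at first and later mainly males, while the number and sex of the mice behind a hashtag are not given in the sources used here. Thus each genotype is 1 sample, no test between genotypes is possible, and every interval below is a 95% interval of counting error only.

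Of 5585 barcodes called as cells, 4925 carried a single hashtag, 426 were hashtag doublets and 234 were negative. T cells (3958 cells in 11 of 19 clusters, built without the 34 genes and without the receptor genes) were divided into CTLs with a Cd8a UMI and no Cd4 UMI (842 from WT, 1181 with RARα deleted and 113 with the transgene), CD4 T cells with a Cd4 UMI and no Cd8a or Cd8b1 UMI (216, 245 and 262), and T cells in neither gate (393, 295 and 411). The median depth of a CTL was 5668 UMIs for WT, against 5572 (RARα-KO) and 4680 (RARα-TG), and the summed CTLs held 5607101, 8115491 and 602657 UMIs. Levels are CPM, the share of a gene in all UMIs of the summed cells on the usual CPM scale, and a gene is called different when it has at least 20 UMIs over both sums, differs by at least 1.5-fold and has an interval that leaves out 0 on the log2 scale. Rara itself was at 85.4 CPM in WT CTLs, 78.6 with the deletion and 191 with the transgene, and at 88.5, 68.9 and 311 CPM in CD4 T cells. The transgenic T cells were thus above WT, while RARα-KO T cells still make a Rara transcript that lacks the deleted exon, as stated in the study, so its level does not check the deletion.

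The cluster with the highest level of Col3a1, Dcn and Col1a1 was taken as the candidate for MC38 cells. It held 418 cells with a genotype, at a median depth above that of any immune class (30004 UMIs in WT). Of the fixed epithelial markers, Krt8 was at 0.151 CPM, Krt19 at 0.227 CPM and Krt18 at 0. Col3a1 and Dcn stood at 1343 and 539 CPM, a high level that follows from the choice of the cluster by these genes. The 7 fixed stromal markers, which include the genes of that choice, summed to 2305 CPM for WT cells, against 2125 (RARα-KO) and 2928 (RARα-TG). One of these markers, Lum, had no UMI among the WT or RARα-TG cells of the cluster. Tumor cells and stromal cells could not be told apart there, and these cells are called MC38 or stromal cells below. The macrophages, the cluster with the highest C1qa, C1qb and C1qc, expressed all 10 fixed macrophage markers in each genotype, with a summed level of 5749 to 9483 CPM. The hashtags were least clear in the WT cells of both classes: the leading hashtag held a median of 75.7% of hashtag UMIs in WT macrophages and 70.1% in WT MC38 or stromal cells, against 94.7% and 92.9% in RARα-KO. In WT CTLs the leading hashtag held a median of 81.9%, against 95% for RARα-KO CTLs and 89.8% for the RARα-TG ones, and 544 of 842 WT CTLs, 1181 of 1181 RARα-KO CTLs and 154 of 216 WT CD4 T cells passed a rule of 80%. Under that rule the member median was 0.34 for RARα-KO CTLs, with -0.83 for the RARα-TG ones.

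The plot of levels by cell class shows that the pathway did not have 1 common high-expressing cell type. Of the 7 enzymes from Gapdh to the lactate dehydrogenases, the triose phase of glycolysis, 5 were highest in MC38 or stromal cells, where Eno1 (enolase) was at 3557 CPM, Ldha (lactate dehydrogenase A) at 2660 and Pgk1 (phosphoglycerate kinase) at 1140. For Pkm (pyruvate kinase), the 2464 CPM of these cells and the 2404 CPM of macrophages had overlapping intervals. Gapdh, the enzyme that oxidizes glyceraldehyde phosphate, was highest in macrophages at 9227 CPM (9085 to 9371), followed by CTLs at 8734 CPM (8686 to 8782). The Siglech dendritic cells were lowest for 6 of the 7 triose-phase enzymes and highest for the seventh, Ldhb, the lactate dehydrogenase that favors pyruvate, at 136 CPM (98.9 to 181) against 19.5 CPM in CD4 T cells without Foxp3.

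The glucose transporters divided the classes differently. Slc2a1 (GLUT1) was highest in neutrophils at 456 CPM (341 to 598) and macrophages at 333 CPM (306 to 361), which were not apart, and stood at 184 CPM in MC38 or stromal cells and 87.5 in CTLs. Slc2a3 (GLUT3), a transporter of high glucose affinity, was at 93.8 CPM in CTLs and 132 CPM in neutrophils but at only 8.05 CPM in macrophages and 0.604 CPM in MC38 or stromal cells. Slc16a3 (MCT4), which exports lactate, reached 702 CPM in neutrophils and 381 CPM in CD4 T cells with a Foxp3 UMI, against 87.1 CPM in CD4 T cells without one. Among regulators, Pfkfb3, whose product raises the activator of phosphofructokinase, was highest in the Fscn1 Ccl22 dendritic cells at 236 CPM and lowest in MC38 or stromal cells at 2.19 CPM.

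Hif1a and its targets were not highest in the same cells. Hif1a was at 955 CPM in CD4 T cells without Foxp3 and 908 CPM with it, which were not apart, and at 540 CPM in CTLs, 353 in macrophages and 85.3 in MC38 or stromal cells. The target Vegfa, the endothelial growth factor, was in turn at 367 CPM in macrophages and 159 in MC38 or stromal cells, and at 3.21 CPM in CTLs and 1.94 in CD4 T cells. The sensor Egln1 (PHD2) was highest in MC38 or stromal cells at 213 CPM, as were the targets Higd1a at 455 CPM and Ankrd37 at 106 CPM. Bnip3, a mitophagy receptor, was at 428 CPM in MC38 or stromal cells and 424 in macrophages, which were not apart. Empty barcodes, which carry the free RNA of the suspension, held Gapdh at 6054 CPM, Bnip3 at 163, Vegfa at 40.7 and Ankrd37 at 44.4 CPM, so the Vegfa of T cells lay below the free RNA. Of the 34 members, 13 were below their level in empty barcodes in WT CTLs, 7 in RARα-KO CTLs and 31 in RARα-TG CTLs, and 14, 7 and 10 in the CD4 T cells of these genotypes. In CTLs they included Bnip3, Egln3 (33.3 CPM in empty barcodes) and Ndrg1 (74.1) in each genotype, Slc2a1 (77.8), Slc16a3 (115) and Ankrd37 in WT and RARα-TG, and the part of free RNA in the ratios was not tested.

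**Figure D1:**
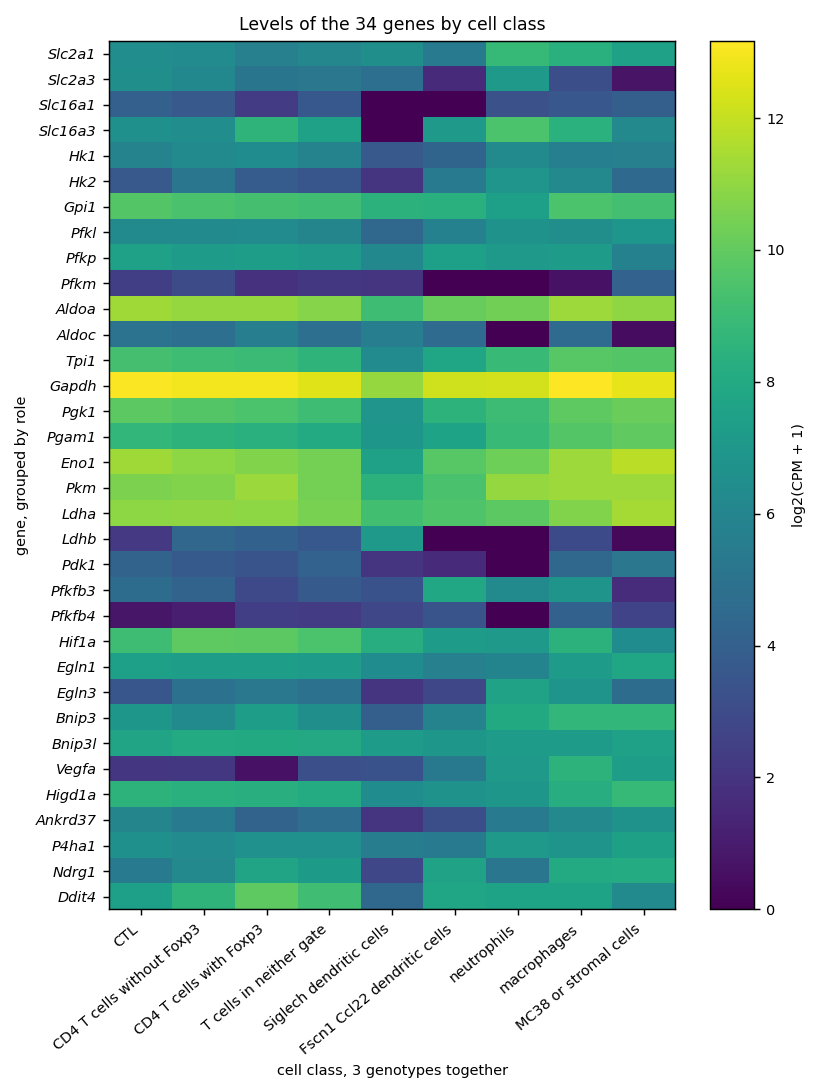
Levels of the 34 genes as log2(CPM + 1), 1 row per gene in order of role and 1 column per cell class, the 3 genotypes together. Vegfa and Slc2a1 are brightest outside the T cells, whereas Hif1a and Slc2a3 are brighter in T cells than in MC38 or stromal cells, where they stood at 85.3 and 0.604 CPM.

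In CTLs, RARα-KO stood above WT for most of the pathway. Of 33 members with enough UMIs, 29 had a ratio above 0, with a median log2 ratio of 0.39 against 0.01 over all 10482 genes tested. Of these, 8 were called higher, where 4.8% of all genes were, and 2 were called lower, where 4.9% were. Of the members called higher, 3 were transporters, 3 hypoxia targets, 1 an oxygen sensor and 1 a hexose-phase enzyme. All 7 triose-phase enzymes had a ratio between 0.29 and 0.56 and none was called.

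Among transporters, Slc2a1 was at 112 CPM (105 to 120) in RARα-KO and 57.1 CPM (51.0 to 63.7) in WT CTLs, a log2 ratio of 0.98. Slc2a3 was at 114 and 72.8 CPM (log2 ratio 0.65), and Slc16a3 at 118 and 73.3 CPM (0.69). The fourth transporter, Slc16a1 (MCT1), was at 15.5 and 14.6 CPM, with intervals that overlapped. Of the 9 enzymes of the hexose phase, from the hexokinases to Tpi1, Pfkl, the liver form of phosphofructokinase, was at 89.8 and 58.0 CPM (0.63). Pfkm, the muscle form, was the only enzyme called lower, on 26 UMIs in RARα-KO and 34 in WT (log2 ratio -0.92, -1.72 to -0.14). Gapdh was at 9946 CPM (9877 to 10014) in RARα-KO and 7489 CPM (7417 to 7561) in WT, and Tpi1 (triosephosphate isomerase) at 734 and 503 CPM, with log2 ratios of 0.41 and 0.55. The other enzymes and regulators had ratios from -0.14 (Aldoc) to 0.44 (Eno1 and Pkm) or, for Ldhb, 0.56 on 32 and 15 UMIs, among them Hk1 (0.28) and Hk2 (0.39), which trap glucose in the cell, Pdk1 (0.31), which holds pyruvate back from mitochondria, and Pfkfb3 (0.40). Pfkfb4 had 6 and 4 UMIs and was not compared.

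The hypoxia targets were led by Ankrd37, which encodes a small ankyrin-repeat protein and is a direct target of HIF-1α. It was at 100 CPM (93.5 to 107) in RARα-KO CTLs, 13.7 CPM (10.8 to 17.2) in WT and 8.3 CPM (2.69 to 19.4) in RARα-TG, from 814, 77 and 5 UMIs. The log2 ratio of RARα-KO over WT was 2.87 (2.53 to 3.23). The 814 UMIs came from 280 of 1181 cells, and the 10 cells with most held 19.2% of them. P4ha1, a prolyl hydroxylase for collagen, was at 120 and 65.5 CPM (0.87), Egln3 (PHD3) at 13.4 and 6.96 CPM (0.95), and Bnip3 at 149 and 97.7 CPM (0.61). The Egln3 ratio was -0.16 with each clonotype weighted equally. Ndrg1, a stress-induced gene downstream of hypoxia, was the other member called lower, at 32.5 CPM in RARα-KO and 56.0 in WT (-0.78). Hif1a itself was at 571 and 531 CPM, a log2 ratio of 0.10 (0.04 to 0.17). The remaining ratios were Egln1 0.47, Higd1a 0.42, Ddit4 0.27, Bnip3l 0.19 and, on 22 and 17 UMIs, Vegfa -0.16.

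RARα-TG CTLs were on the other side of WT. Of 32 members with enough UMIs, 30 were below 0, with a median log2 ratio of -0.84 against -0.00 over 9464 genes. Of these, 19 were called lower and 1 higher, where 6.57% and 7.67% of all genes were. All 6 tested triose-phase enzymes and 5 of 9 of the hexose phase were called lower. With each clonotype weighted equally 12 were called lower and the median was -0.48. Those calls use no interval, and 20.8% of all genes were called lower there. The RARα-KO and RARα-TG ratios share the WT cells as their denominator, so the values of both are given side by side without a relation between them.

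Gapdh stood at 4004 CPM (3846 to 4167) in RARα-TG CTLs against 7489 CPM in WT, a log2 ratio of -0.90, which was -0.31 with clonotypes weighted equally. Aldoa (aldolase A) was at 901 and 2309 CPM (-1.36), Tpi1 at 173 and 503 CPM (-1.54), and Pgk1 at 337 and 849 CPM (-1.33). Others called lower in the enzymes were Gpi1 (-0.81), Pfkp (-0.99), Aldoc (-2.03), Pgam1 (-0.87), Eno1 (-1.09), Pkm (-0.96), Ldha (-0.77) and the regulator Pfkfb3 (-2.06). Of the 4 transporters, 3 were called lower: Slc2a1 at 34.8 CPM (-0.71), Slc2a3 at 11.6 CPM from 7 UMIs (-2.65) and Slc16a3 at 38.2 CPM (-0.94). Weighting clonotypes equally brought Slc2a1 to -0.29 and Slc16a3 to -0.30. Hif1a was at 194 CPM (161 to 233), against 531 in WT (-1.45), and Egln1 at 84.6 against 141 CPM (-0.74). Bnip3 was at 6.64 CPM from 4 UMIs in 113 cells, against 97.7 CPM in WT (-3.88, -5.76 to -2.52), and Ndrg1 at 24.9 CPM (-1.17), which turned to 0.99 where a Cd8b1 UMI also admitted a CTL. Vegfa was called higher, on 7 UMIs from 3 cells against 17 UMIs in WT (1.94, 0.43 to 3.28), a level of 11.6 CPM that is below that of the empty barcodes. Bnip3l (-0.17), Higd1a (-0.33), Ddit4 (-0.46), Pdk1 (-0.17), Hk1 (-0.55), Hk2 (-1.06, on 3 UMIs) and Slc16a1 (0.56, on 13 UMIs) were not called.

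**Figure D2:**
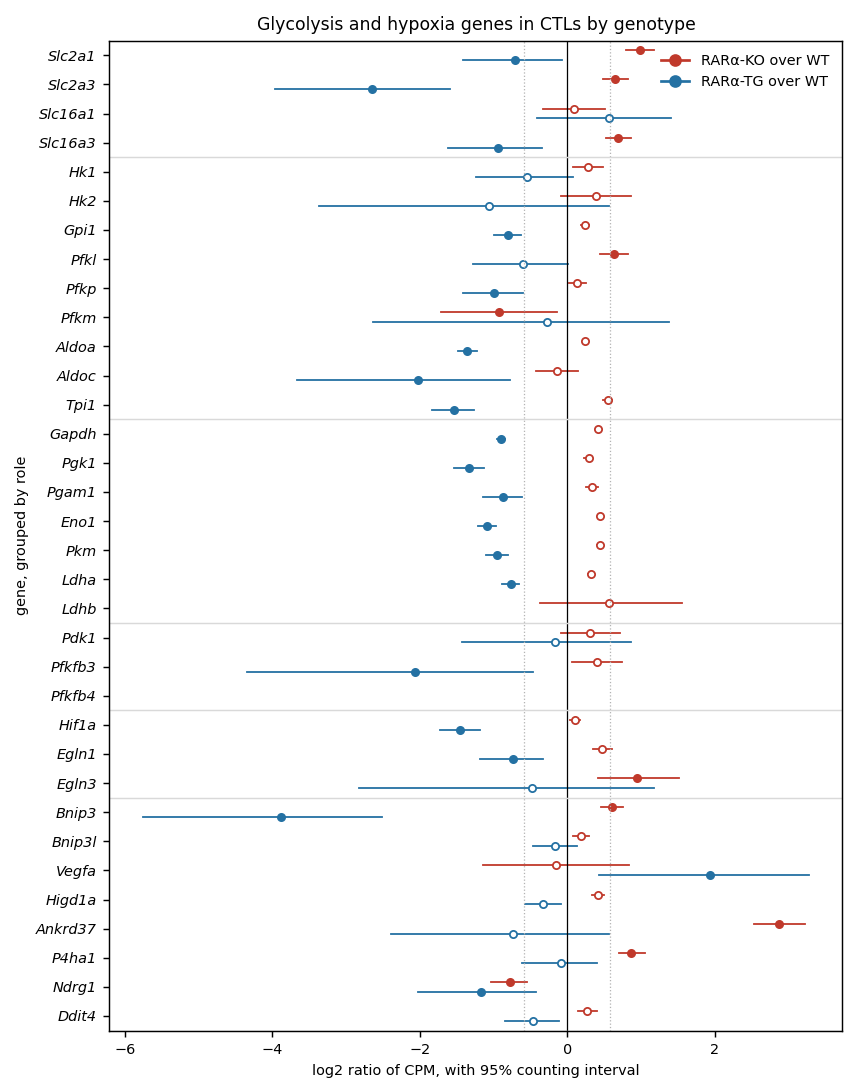
Log2 ratio of CPM over WT in CTLs for each gene (red, RARα-KO; blue, RARα-TG) with 95% counting intervals; filled points are called, open points are not, and dotted lines mark 1.5-fold. Most red points lie right of 0 and most blue points left of it, with Ankrd37 at 2.87 in RARα-KO and Bnip3 at -3.88 in RARα-TG as the farthest.

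The genotypes held CTLs of different states, and the members varied strongly between these states. Of RARα-TG CTLs, 57.5% lay in a cluster led by Cd7, Tcf7 and S1pr1 and 21.2% in one led by Ramp3, S1pr1 and Tcf7, against 13.9% and 5.7% of WT CTLs; Tcf7 and S1pr1 are genes of early memory and circulating T cells. Of the 11 T cell clusters, they were among the 2 lowest for 22 and 26 of the 34 members, the 3 genotypes together, with Gapdh at 3921 and 2700 CPM. A cluster led by Prf1 (perforin), Serpine2 and Zbtb32 held 21.8% of RARα-KO and 1.66% of WT CTLs and had the highest Gapdh level of the T cell clusters, 13742 CPM. A cluster led by the granzymes Gzmd, Gzmf and Gzme held 27.6% of WT and 6.6% of RARα-KO CTLs, with Gapdh at 9192 CPM. Within clusters the ratios did not keep 1 size or direction, and the part of the cluster shares in the CTL ratios was not tested. In the Cd7 and Tcf7 cluster the median log2 ratio of the members was -0.25 in RARα-TG (6 of 21 above 0) and 0.18 in RARα-KO, and in the Ramp3 cluster it was 0.54 in RARα-TG (14 of 15 above 0, 24 cells). For RARα-KO it was 0.76 in the Xcl1 and Ccl1 cluster, 0.36 in the Gzmk and Cxcr6 cluster, 0.13 in the granzyme cluster, -0.04 in the Ifit1 cluster and -0.12 in the cycling cluster. Without the Prf1 cluster, an alternative chosen after seeing the data, 4 members in place of 8 were called higher in RARα-KO CTLs, where 4.94% of all genes were. The median was 0.24, and Slc2a3 (0.43), Slc16a3 (0.37) and Bnip3 (0.10) were no longer among the members called.

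The RARα-KO level of Ankrd37 was above WT in each of the 6 CTL clusters with enough cells of both, and it was called in 4 of them. In CTLs of the Xcl1 and Ccl1 cluster it was at 169 CPM in RARα-KO and 8.21 in WT (log2 ratio 4.36, 3.12 to 6.00), and in the Gzmk and Cxcr6 cluster at 78.4 and 19.2 CPM (2.03). In the cycling cluster it was at 72.1 and 14.6 CPM (2.30), and in the granzyme cluster at 60.5 and 15.6 CPM (1.95). In the Cd7 and Tcf7 cluster the interval of its ratio held 0 (22 and 4 UMIs, -0.02 to 3.54), and in the Ifit1 cluster 9 UMIs stood against none. Bnip3 did not keep 1 direction: it was called higher in the Xcl1 and Ccl1 cluster (113 and 50.9 CPM, 1.15) and lower in the Cd7 and Tcf7 cluster (8 and 19 UMIs, -2.17).

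**Figure D3:**
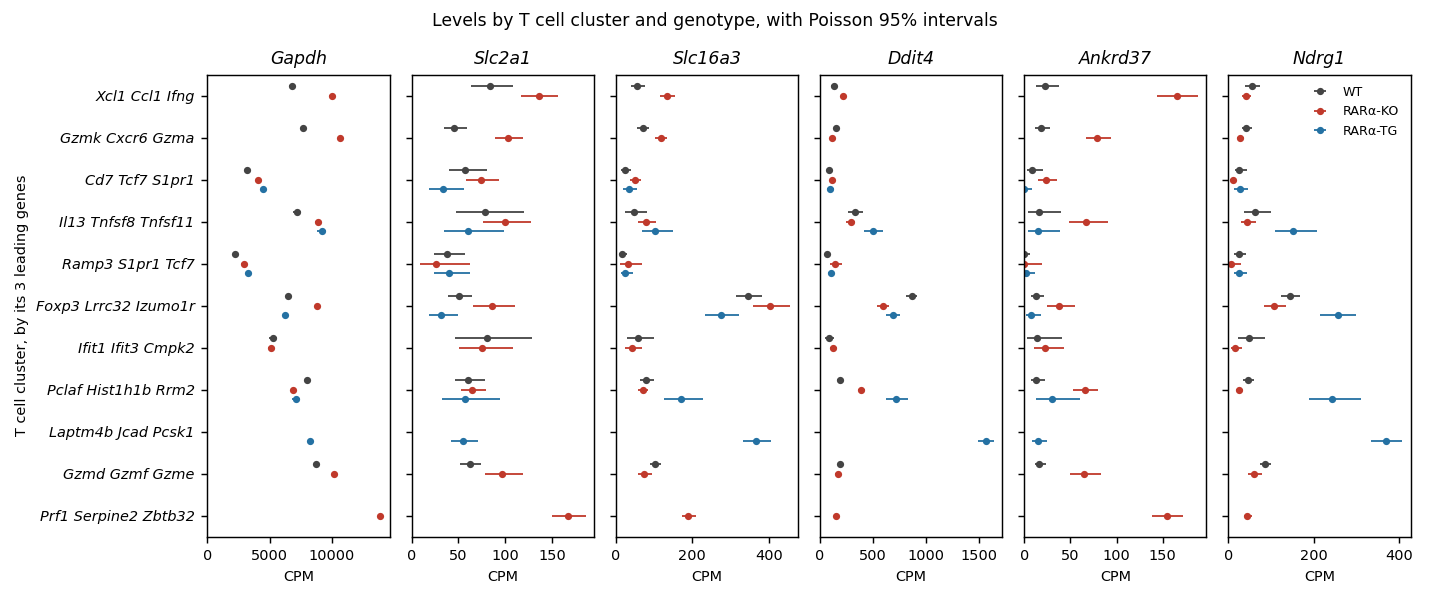
CPM of 6 members in each T cell cluster (rows, named by 3 leading genes) by genotype, with Poisson 95% intervals; a point is drawn only where a genotype has at least 20 cells. Gapdh is lowest in the clusters with Tcf7 and highest in the Prf1 cluster (13878 CPM in RARα-KO), Ankrd37 is higher in RARα-KO in the Xcl1, Gzmk and cycling clusters, and Ddit4 is highest in the Laptm4b cluster (1563 CPM in RARα-TG).

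In RARα-KO CD4 T cells, 23 of 30 tested members were above 0 with a median of 0.32 against -0.05 over 7919 genes, 4 were called higher, where 3.21% of genes were, and 2 lower, where 5.44% were. Slc2a1 was at 98.3 CPM in RARα-KO and 52.9 in WT (0.89), Pgk1 at 884 and 544 CPM (0.70), and Egln1 at 211 and 126 CPM (0.75). Ankrd37 was again the farthest from 0, at 58.7 CPM (46.5 to 73.0) in RARα-KO, 10.6 CPM (5.28 to 18.9) in WT and 12.4 CPM (6.94 to 20.4) in RARα-TG, a RARα-KO ratio of 2.47 (1.56 to 3.53). It was above WT both with and without a Foxp3 UMI, at 36.9 against 8.34 CPM and 70.8 against 13.6 CPM. The 2 members called lower were Ndrg1, at 63.1 and 122 CPM (-0.95), and Ddit4, an mTORC1 inhibitor induced by hypoxia and glucocorticoids, at 399 and 682 CPM (-0.77). The cells lay in different clusters: the one led by Foxp3 held 34.3% of RARα-KO and 60.6% of WT CD4 T cells, and one led by Il13 and Tnfsf8 39.6% and 16.7%. Within them the Ndrg1 ratio was -0.55 and -0.77, neither called, and that of Ddit4 -0.59, called, and -0.35, not called.

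In RARα-TG CD4 T cells the enzymes lay near the WT level. The median log2 ratio over 30 members was 0.11 against 0.00 over 7869 genes, 3 members were called higher, where 4.65% of genes were, and 1 lower, where 4.47% were. Ndrg1 was at 245 CPM (218 to 274) in RARα-TG and 122 CPM (102 to 145) in WT (1.0), Egln3 at 48.8 and 26.0 CPM (0.91), and Pfkp at 179 and 117 CPM (0.61), while Slc2a3 was at 25.6 and 51.9 CPM (-1.02). Gapdh was at 7680 and 6888 CPM, a log2 ratio of 0.16. Here too the subsets differed: 46.2% of RARα-TG and 2.31% of WT CD4 T cells lay in a cluster led by Laptm4b and Jcad. In the cluster led by Foxp3 the shares were 20.6% and 60.6%. These shares are not those of Foxp3+ cells, as 150 of 262 RARα-TG and 120 of 216 WT CD4 T cells had a Foxp3 UMI. Klrg1 and Il10 were also among the leading genes of the Laptm4b cluster. Without the Laptm4b cluster, chosen after seeing the data, 0 members were called higher, where 4.33% of all genes were, and 2 lower, where 4.67% were. The median was then -0.08. Ndrg1 was still called higher within the Foxp3 cluster (0.60) and the Il13 cluster (1.20). Egln3 was called higher in the Foxp3 cluster (1.98, on 15 and 11 UMIs) and Pgk1 in the Il13 cluster (0.81). Called lower were Bnip3 (-1.16) and Tpi1 (-0.64) in the Foxp3 cluster, and Slc2a3 (-2.32), Hk1 (-1.23) and Hif1a (-0.66) in the Il13 cluster. Pfkp (0.04 and 0.59) was called in neither, and the member medians were -0.13 and 0.14.

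Foxp3+ cells were set against the other CD4 T cells of the same genotype. In WT 4 of 26 members were called higher, where 8.39% of genes were, and 3 lower, where 7.75% were; in RARα-KO 5 of 29 higher, where 10.4% were, and 4 lower, where 7.59% were; in RARα-TG 7 of 26 higher, where 9.16% were, and 0 lower, where 7.02% were. Slc16a3, Ddit4, Ndrg1 and Bnip3 were called higher in all 3 genotypes. In WT, Slc16a3 was at 382 CPM with a Foxp3 UMI and 72.7 CPM without (log2 ratio 2.39, 1.85 to 2.97), in RARα-KO at 383 and 82.3 CPM (2.22) and in RARα-TG at 378 and 109 CPM (1.79). Ddit4 was at 912 and 368 CPM in WT, 579 and 298 CPM in RARα-KO and 1262 and 560 CPM in RARα-TG. Ndrg1 was at 160 and 70.5 CPM in WT, 111 and 36.6 CPM in RARα-KO and 312 and 141 CPM in RARα-TG. Bnip3 was at 138 and 90.9 CPM in WT, 219 and 80 CPM in RARα-KO and 146 and 48.4 CPM in RARα-TG. Called higher in 1 genotype were Aldoc in RARα-KO (40.9 and 19.4 CPM) and Pkm (2558 and 1576), Egln1 (172 and 103) and Egln3 (66.7 and 21 CPM) in RARα-TG. Slc2a3 was called lower in WT (36.7 and 72.7 CPM) and RARα-KO (40.9 and 93.7), as was Hk2 (11.7 and 36.4, 6.14 and 42.3 CPM), while Egln3 (16.7 and 38.6) was called lower in WT and Pfkfb3 (6.14 and 21.7) and Ankrd37 (36.9 and 70.8 CPM) in RARα-KO. In the Laptm4b cluster Ddit4 stood at 1538 CPM (1468 to 1611) and Ndrg1 at 354 CPM (321 to 390), above the 745 and 160 CPM of the Foxp3 cluster. T cells in neither gate had a member median of 0.27 in RARα-KO and 0.12 in RARα-TG, with Ankrd37 at 49.3 CPM in RARα-KO, 21.3 in WT and 11.5 in RARα-TG.

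**Figure D4:**
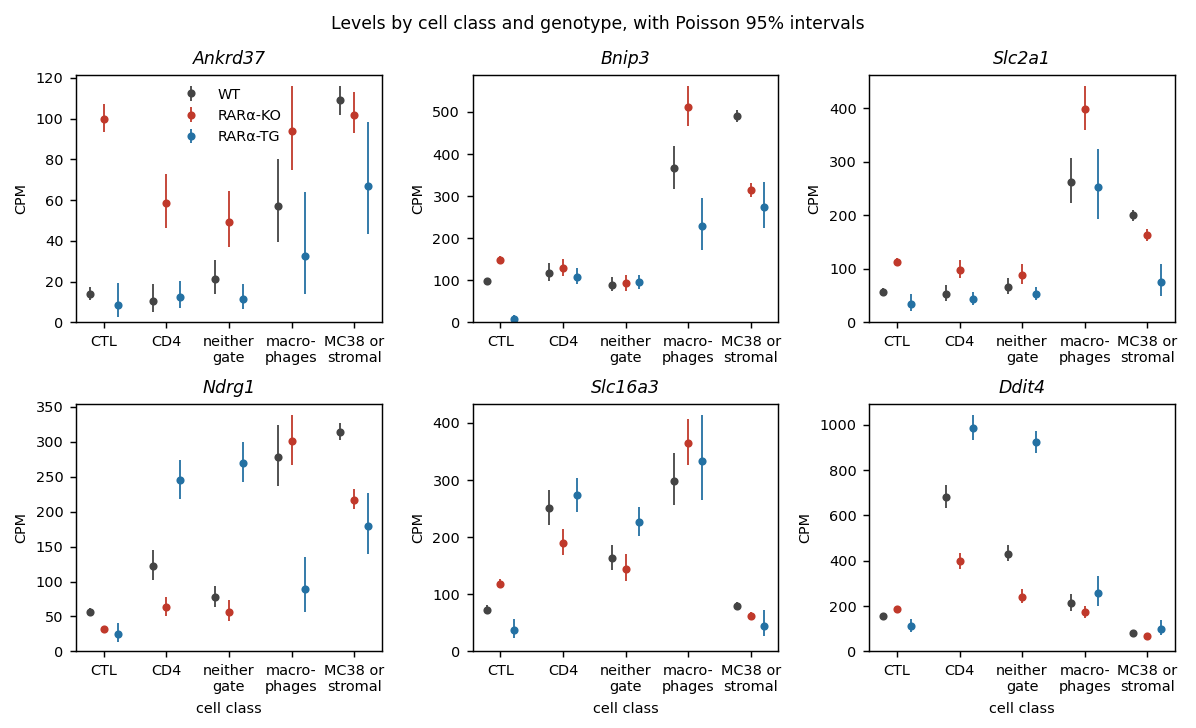
CPM of 6 members by cell class and genotype (gray, WT; red, RARα-KO; blue, RARα-TG) with Poisson 95% intervals. Ankrd37 in RARα-KO CTLs (100 CPM) reaches the level of MC38 or stromal cells (109 CPM in WT), while Ndrg1 and Ddit4 in RARα-TG are higher in CD4 T cells (245 and 986 CPM) and T cells in neither gate (270 and 923 CPM) than in CTLs (24.9 and 113 CPM).

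Markers of other cells were rare in the T cells. The 10 macrophage markers summed to 18.9 CPM in WT CTLs, 21.4 with the deletion and 19.9 with the transgene, with Adgre1 and Mrc1 at 0 in WT and RARα-TG, and the 7 stromal markers to 1.25, 1.85 and 1.66 CPM, with Lum at 0 in all. In CD4 T cells the sums were 31.7, 13.2 and 24.8 CPM for macrophage markers and 3.85, 0.733 and 4.13 CPM for stromal markers. Cycling cells, those with at least 2 UMIs over 8 cell cycle genes, made up 13.9% of the WT CTLs, against 10.2% (RARα-KO) and 7.96% (RARα-TG). The RARα-KO and RARα-TG medians in CTLs were 0.49 and -0.86 without them.

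Clonal expansion was read from the T cell receptor. A clonotype is a set of T cells with the same receptor chains and hence a common ancestor, and the third complementarity-determining region (CDR3) of the β chain is its most variable part. In WT 467 CTLs belonged to clonotypes of 10 or more cells and 121 to clonotypes of 1 cell, in RARα-KO 680 and 94, and in RARα-TG 0 and 81. The 3 largest clonotypes of WT and RARα-KO CTLs are shown because the levels below are given for them. The CDR3β sequences run 5′ to 3′ as deposited, with the conserved first and last codons (cysteine and phenylalanine) in capitals. Each was found in all CTLs of its clonotype that had a productive β chain. These were 54 of 64 CTLs in WT clonotype 1, 54 of 58 in WT clonotype 2 and 70 of 72 in RARα-KO clonotype 3. In the other clonotypes they were all CTLs.
WT clonotype 1 (TRBV31, 64 CTLs): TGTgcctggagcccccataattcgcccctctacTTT
WT clonotype 2 (TRBV31, 58 CTLs): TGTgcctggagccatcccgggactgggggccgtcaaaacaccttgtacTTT
WT clonotype 3 (TRBV5, 39 CTLs): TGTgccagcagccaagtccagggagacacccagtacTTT
RARα-KO clonotype 1 (TRBV16, 113 CTLs): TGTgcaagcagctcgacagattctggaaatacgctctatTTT
RARα-KO clonotype 2 (TRBV16, 75 CTLs): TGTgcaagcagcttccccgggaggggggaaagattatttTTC
RARα-KO clonotype 3 (TRBV3, 72 CTLs): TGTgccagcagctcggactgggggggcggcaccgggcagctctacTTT

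In WT, CTLs of clonotypes of 10 or more cells had higher levels of glycolysis genes than CTLs of 1-cell clonotypes. Of 31 members tested, 16 were called higher, where 6.22% of genes were, and 0 lower, where 5.84% were, with a median of 0.64 against 0.03 over 8718 genes. Gapdh was at 7957 CPM in the expanded and 4771 CPM in the single CTLs (0.74), Aldoa at 2510 and 1286 CPM (0.97), Tpi1 at 537 and 259 CPM (1.05), Eno1 at 2278 and 1181 CPM (0.95) and Pgk1 at 889 and 496 CPM (0.84). Slc2a3 was at 85.3 and 30.5 CPM (1.48) and Slc16a3 at 73.4 and 30.5 CPM (1.27), while Slc2a1, at 57.0 and 44.2 CPM, had an interval that held 0. The others called were Aldoc (1.5), Pgam1 (0.72), Pkm (0.71), Ldha (0.60), Hif1a (0.71), Egln1 (0.64), Bnip3 (1.40), P4ha1 (0.89) and Ndrg1 (0.99).

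In RARα-KO, 10 of 30 members were called higher in the expanded CTLs, where 2.30% of genes were, and 0 lower, where 5.42% were, with a median of 0.43 against -0.05 over 9063 genes. Gapdh was at 10133 and 6609 CPM (0.62), Pgk1 at 1046 and 555 CPM (0.91), Tpi1 at 738 and 410 CPM (0.85) and Slc16a3 at 120 and 56.9 CPM (1.07). Slc2a3 (0.70), Eno1 (0.70), Pkm (0.70), Ldha (0.68) and Bnip3 (1.07) were called as well. Ankrd37, at 95.3 CPM in expanded and 43.6 CPM in single RARα-KO CTLs (1.13, 0.52 to 1.80), was called in RARα-KO; in WT it was at 13.1 and 9.15 CPM with an interval that held 0. Whether the clonotype ratios differ between WT and RARα-KO was not tested. The cluster shares of expanded and single CTLs were not compared, and the part of the cell states in these ratios was not tested. Expanded CTLs were deeper, with a median of 6017 against 4221 UMIs in WT and 5489 against 3937 in RARα-KO. Cycling cells were 14.3% (11.3 to 17.9) of expanded and 5.79% (2.36 to 11.6) of single CTLs in WT. In RARα-KO they were 10.6% (8.38 to 13.1) and 6.38% (2.38 to 13.4). The intervals overlapped in both, and the cut of 2 UMIs is not scaled to depth. In CPM the 8 cell cycle genes had a median log2 ratio of 0.54 in WT and -0.18 in RARα-KO. The part of depth and cycling in the ratios was not tested beyond the medians with each cell thinned to 1000 UMIs (0.96 in WT, 0.52 in RARα-KO) and without cycling cells (0.80 and 0.39).

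The clonotypes of 10 or more CTLs varied among themselves. Over 19 such WT clonotypes Gapdh ranged from 5964 to 10610 CPM with a median of 7725, and over 21 RARα-KO clonotypes from 6765 to 12812 CPM with a median of 9797, so the ranges overlapped. Slc2a1 ranged from 24.4 to 102 CPM (median 49.7) in WT and from 67.1 to 310 CPM (median 108) in RARα-KO. Ankrd37 had no UMI in 7 of the 19 WT clonotypes and at most 37.9 CPM in the others (median 8.32), whereas in RARα-KO 1 clonotype was at 0 and the median was 67.1 CPM with a highest value of 264. In the 3 RARα-KO clonotypes printed above it was at 98.5, 67.1 and 146 CPM, and in the 3 WT clonotypes at 12.2, 2.96 and 16.1 CPM. The high Ankrd37 level of RARα-KO CTLs was thus not that of 1 clone, although clonotypes of 1 genotype come from the same pooled tumors and are not replicates. With each clonotype weighted equally, its log2 ratio of RARα-KO over WT was 2.79.

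**Figure D5:**
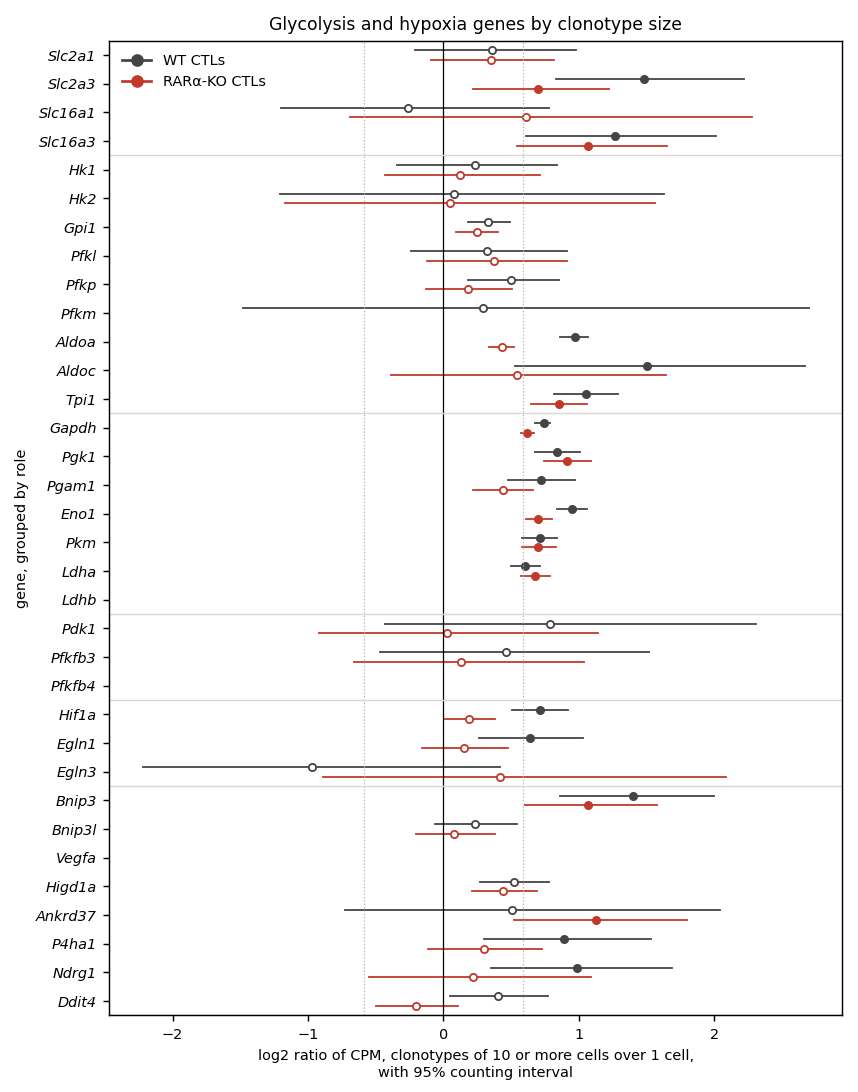
Log2 ratio of CPM in CTLs of clonotypes of 10 or more cells over clonotypes of 1 cell (black, WT; red, RARα-KO) with 95% counting intervals; filled points are called and dotted lines mark 1.5-fold. The enzymes from Tpi1 to Ldha lie right of 0 in both genotypes, with Gapdh at 0.74 in WT and 0.62 in RARα-KO.

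The macrophages, in which neither the distal Lck promoter nor CD2 is a usual driver, were compared in the same way. In RARα-KO 24 of 30 members were above 0, with a median of 0.26 against 0.00 over 5949 genes; 4 were called higher, where 6.52% of genes were, and 1 lower, where 5.8% were. Slc2a1 was at 399 and 262 CPM (0.61), Pfkp at 190 and 115 CPM (0.73), Pfkfb3 at 146 and 93.7 CPM (0.64) and Ankrd37 at 93.7 and 57.3 CPM (0.71). Aldoc was called lower on 4 and 16 UMIs (-2.67). In RARα-TG, with 35 macrophages, 9 of 29 members were called lower, where 8.95% of genes were, and 1 higher, where 6.9% were, with a median of -0.45. Pkm was at 1268 and 2279 CPM (-0.85), Aldoa at 1711 and 2595 (-0.60), Pgk1 at 577 and 870 (-0.59) and Ndrg1 at 89.4 and 278 CPM (-1.64). Egln3 (3 and 61 UMIs, -3.12), Pfkfb3 (3 and 54, -2.94), Hk2 (5 and 41, -1.81), Pfkl (9 and 50, -1.25) and Bnip3 (56 and 211, -0.69) were lower, and Aldoc (21 and 16 UMIs, 1.62) was higher.

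These macrophage values rest on the hashtag rule. Where 1 hashtag had to hold 80% of the hashtag UMIs, 22 of 77 WT macrophages remained, while RARα-KO kept 125 of its 126 and RARα-TG 32 of its 35, and the rule assigned 131 and 33 macrophages to the latter genotypes in all. The medians were then 0.90 in RARα-KO (17 members called higher, where 9.35% of genes were, and 0 lower, where 8.99% were) and 0.30 in RARα-TG (4 higher and 1 lower, where 5.7% and 8.7% of genes were), so the RARα-TG direction turned, as did that of Bnip3 in RARα-TG (0.46). With each cell thinned to 1000 UMIs, Ankrd37 and Pfkfb3 in RARα-KO were at -0.10 and Hk2 in RARα-TG at 0.65. Slc2a3 had 14 UMIs in RARα-KO macrophages and 0 in WT. Ribosomal protein genes had a median ratio of 0.55 in RARα-TG macrophages, with 33 of 87 called higher, and -0.34 in RARα-KO macrophages, with 12 of 89 called lower. T cell markers summed to 519 CPM in RARα-KO macrophages, 128 in WT and 102 in RARα-TG, with all 6 detected apart from Trbc1 in RARα-TG. The part of both in the ratios was not tested, apart from an alternative for the ribosomal genes. There CPM was scaled without mitochondrial, ribosomal and receptor genes, and the member medians of both genotypes kept their sign.

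In MC38 or stromal cells, 26 of 31 members were below 0 in RARα-KO, with a median of -0.26 against 0.01 over 11198 genes. Of these, 1 was called lower, Bnip3 at 314 CPM (297 to 331) against 490 CPM (476 to 505) in WT (-0.64), and 0 were called higher; 2.37% of genes were called lower and 4.44% higher. The nearest to a call were Egln1, at 163 and 240 CPM (-0.56), and Pgk1, at 878 and 1288 CPM (-0.55). Ankrd37 was at 102 and 109 CPM (-0.08, -0.25 to 0.08). In RARα-TG, on 19 cells, 15 of 31 members were called lower, where 4.91% of genes were, and 0 higher, where 4.8% were, with a median of -0.70 against -0.05. Slc2a1 was at 74.7 against 200 CPM (-1.42), Pfkl at 61.4 against 129 (-1.07), Pgk1 at 694 against 1288 (-0.89), Pgam1 at 566 against 1045 (-0.88) and Egln1 at 133 against 240 CPM (-0.85). Slc16a3 (-0.82), Gpi1 (-0.68), Tpi1 (-0.78), Eno1 (-0.70), Pkm (-0.65), Ldha (-0.67), Bnip3 (-0.83), Higd1a (-0.80), Ankrd37 (-0.70) and Ndrg1 (-0.81) were the rest. T cell markers summed to 136 CPM in the RARα-TG cells, 57.3 in RARα-KO and 14.2 in WT, and the median depth was 19337 UMIs in RARα-TG against 30004 in WT. Under the 80% hashtag rule 72 of 272 WT and 8 of 19 RARα-TG cells remained, and the medians were 0.06 in RARα-KO (2 higher and 0 lower, where 3.81% and 2.33% of genes were) and -0.22 in RARα-TG (3 higher and 2 lower, where 5.82% and 6.12% were).

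Other genes of the pathways were followed by lists fixed with the 34, whose counts are to be read against the shares of all genes given above for the same comparisons. Of 26 further glycolysis genes 11 could be tested in RARα-KO CTLs, where 0 were called higher and 2 lower (Eno3, 5.91 and 16.4 CPM, -1.47; Adpgk, 14.5 and 23.2 CPM, -0.67). In RARα-TG CTLs 1 of 8 was called, Bsg, the chaperone of the lactate transporters, at 188 against 374 CPM (-1.0). Of 32 further hypoxia and HIF genes, 3 of 26 were called higher in RARα-KO CTLs and 1 lower. Plin2, which coats lipid droplets, was at 86.6 against 32.6 CPM (1.41), Hmox1, heme oxygenase, at 13.2 against 5.35 CPM (1.30), Cited2, an inhibitor of HIF transactivation, at 81.0 against 45.7 CPM (0.83), and Stc2 was lower on 7 and 38 UMIs (-2.97). In RARα-TG CTLs 3 of 23 were higher, led by Cited2 at 108 against 45.7 CPM (1.24) and Arnt, the partner of HIF-1α, at 33.2 against 19.1 CPM (0.80), and 7 were lower, led by Upp1 (2 and 136 UMIs, -2.87) and Bhlhe40 at 163 against 551 CPM (-1.76).

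Plin2 and Hmox1 were called higher in RARα-KO CD4 T cells (0.81 and 1.97), RARα-TG CD4 T cells (0.72 and 1.59) and RARα-KO macrophages (1.40 and 1.29) as well, and lower in RARα-TG MC38 or stromal cells (-0.91 and -1.11). In CD4 T cells 2 of 21 of these hypoxia genes were higher and 3 lower in RARα-KO, and 2 of 19 were higher and 1 lower in RARα-TG. In macrophages 6 of 19 were higher (6.52% of all genes) and 0 lower in RARα-KO, and 0 of 13 higher and 3 lower (8.95% of all genes) in RARα-TG. In MC38 or stromal cells 2 of 28 were higher and 6 lower in RARα-KO, and 2 of 27 higher and 8 lower in RARα-TG. Between expanded and single CTLs 5 of 22 were higher and 4 lower in WT, and 1 of 23 higher and 2 lower in RARα-KO. Of the pentose phosphate branch, which draws on glucose phosphate, and of the entry of pyruvate into mitochondria, 0 of 7 and 0 of 11 genes were called in RARα-KO CTLs, with medians of -0.02 and -0.10. In RARα-TG CTLs 0 of 7 pentose phosphate genes were called and 1 of 10 pyruvate entry genes, Pdp1, lower on 4 and 101 UMIs (-1.44), with medians of -0.23 and -0.10. Of the 8 cell cycle genes, 0 were called in RARα-KO CTLs and 1, higher, in RARα-TG CTLs.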

How the data were processed

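The authors processed the reads with Cell Ranger (version 6.1.0 per the labels, although the matrix header names another release) against mm10 and deposited unfiltered UMI counts per gene and hashtag for 730308 barcodes, with a table of T cell receptor contigs. From these, 2433 cells were taken by rank and 3152 more by a test against the free RNA of empty barcodes (false discovery rate 0.01), giving 5585 cells with 96.4% of 46394322 gene UMIs and a median of 4823. Genotypes came from HTODemux (Seurat 5.3.0, quantile 0.99, R 4.3.3), which also marked the doublets, and no other doublet caller was run. Clusters were built with scanpy 1.11.5 (2000 variable genes, 30 components, Leiden resolution 1). UMIs were summed per class and genotype. Poisson intervals for levels, Clopper-Pearson intervals for shares and intervals of ratios from the exact binomial split of the UMIs (numpy 2.4.6, scipy 1.17.1) are at 95% and cover counting error only. Ratios against a sum without UMIs used a bound of 3 UMIs and are not printed. No test between genotypes was run. Scripts were tested on simulated data. The TMM alternative used edgeR 4.0.16. Alternatives numbered 16 (depth, scaling, gene filters, fold, mitochondrial share, hashtag and cell calls, T cell and CTL definitions, clonotype weights, cycling cells and single clusters), of which 2 were added after seeing the data.

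All 34 members were matched by symbol, in the matrix and in the RefSeq gene table (GRCm38.p6) that gave positions. Ankrd37 lies on chromosome 8 (45996908 to 46000414), Slc2a1 on chromosome 4 (119108745 to 119137330), Bnip3 on chromosome 7 (138890836 to 138909506) and Gapdh on chromosome 6 (125161852 to 125166467). Aldoa was carried by 2 IDs, the second with 61 UMIs, and the ID with more UMIs was used. Gapdh, Eno1, Pgk1, Ldha, Tpi1, Pkm and Aldoa have near-identical copies or pseudogenes that can take or lend reads. In the 10 genotype and clonotype comparisons all called members are named, and calls within clusters are given in part. The members and lists were chosen with earlier results of these data known. The count of per-sample columns left unused was 0.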

Additional observations from a re-analysis of the deposited data

Results flagged for a closer look

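Among the members, 5 were called in opposite directions in 2 cell classes under the same genotype contrast. The share of all genes called in this way was not computed, so the count says nothing particular to the members. These differences were not tested, since each genotype is 1 sample. Bnip3 had a RARα-KO log2 ratio over WT of 0.61 in CTLs and -0.64 in MC38 or stromal cells. Aldoc had a RARα-TG ratio of -2.03 in CTLs and 1.62 in macrophages, on 5 and 21 UMIs. Egln3 had a RARα-TG ratio of -3.12 in macrophages, on 3 UMIs, and 0.91 in CD4 T cells. Pfkp had a RARα-TG ratio of 0.61 in CD4 T cells and -0.99 in CTLs. Ndrg1 had a RARα-TG ratio of 1.0 in CD4 T cells, against -1.17 in CTLs, -1.64 in macrophages and -0.81 in MC38 or stromal cells.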

How the results depend on the processing

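No paired analysis was possible because the 3 genotypes are hashtags of 1 pool and carry no replicate numbers. Leaving out a replicate could not be done, since each genotype is 1 sample. The limits are the single pool, the less clear WT hashtags, most of all outside T cells, and few RARα-TG cells. Of 124 medians under alternatives 3 changed sign, those of RARα-TG CD4 T cells (-0.08 without the Laptm4b cluster), RARα-TG macrophages and RARα-KO MC38 or stromal cells, and 6 values of single members turned. With calls at 2-fold, the share of all genes called in the same direction stands after each count. Members called higher numbered 1 in RARα-KO CTLs (2.08%), 1 in RARα-KO CD4 T cells (1.52%), 1 in RARα-TG CD4 T cells (2.48%) and 0 in RARα-KO macrophages (4.2%). In the clonotype comparisons 5 were higher in WT (3.26%) and 3 in RARα-KO (1.2%). Members called lower numbered 0 in RARα-KO CTLs (2.63%), CD4 T cells (2.56%) and MC38 or stromal cells (0.831%). In RARα-TG 10 were lower in CTLs (3.95%), 5 in macrophages (6.63%) and 2 in MC38 or stromal cells (2.91%). Under the other alternatives 1.95% to 9.79% of all genes were called higher and 1.82% to 11.3% lower. With clonotypes weighted equally, which has no interval, the shares were 15.1% to 20.6% and 14.4% to 20.8%. With 0.1 UMIs per cell as the filter, 1 was lower in RARα-KO and 0 higher in RARα-TG CTLs; T cells by receptor alone and CTLs without cycling cells gave the same 1 and 0. Without a filter 1 was higher and with TMM 3 lower in RARα-KO MC38 or stromal cells. With a Cd8b1 UMI also admitted, 3 were higher in RARα-TG CTLs and Ndrg1 turned to 0.99. With clonotypes weighted equally, 12 were lower in RARα-TG CTLs, 1 was lower in expanded WT CTLs, and Egln3 in RARα-KO CTLs turned to -0.16. Under the 80% hashtag rule, CTLs had 1 lower in RARα-KO and 0 higher in RARα-TG, expanded WT CTLs 10 higher, macrophages 17 higher and 0 lower in RARα-KO (median 0.90) and 4 higher and 1 lower in RARα-TG (median 0.30), and MC38 or stromal cells 2 higher and 0 lower in RARα-KO (median turned to 0.06) and 3 higher and 2 lower in RARα-TG; Bnip3 in RARα-TG macrophages turned to 0.46. With cells thinned to 1000 UMIs, CTLs had 0 lower in RARα-KO and 0 higher in RARα-TG, CD4 T cells 0 lower in RARα-TG, macrophages 0 higher and 0 lower in RARα-KO and 0 higher and 4 lower in RARα-TG, MC38 or stromal cells 5 lower in RARα-KO and 9 lower in RARα-TG, and expanded WT CTLs 9 higher; Pfkfb3 and Ankrd37 in RARα-KO macrophages turned to -0.10 and Hk2 in RARα-TG macrophages to 0.65. Without the granzyme cluster, CTLs had 0 lower in RARα-KO and 0 higher in RARα-TG, and CD4 T cells 2 lower in RARα-TG. Of the alternatives, 2 were chosen after seeing the data. Without the Prf1 cluster 4 were higher in RARα-KO CTLs, where 4.94% of all genes were. Without the Laptm4b cluster 0 were higher and 2 lower in RARα-TG CD4 T cells, where 4.33% and 4.67% of all genes were. Apart from where alternatives leave fewer cells or genes, the causes were not tested. The Ankrd37 ratio of RARα-KO over WT in CTLs lay between 2.51 and 3.04 under the alternatives run.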

Other observations

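Hashtag-negative cells, hashtag doublets and the unnamed clusters led by hemoglobin, mitochondrial and B cell genes were left out of the comparisons. In the other immune classes the members were compared on few cells. In neutrophils (37 RARα-KO, 10 RARα-TG and 10 WT cells) the median log2 ratio over WT was -0.45 on 12 members for RARα-KO and -0.62 on 8 members for RARα-TG. In Fscn1 Ccl22 dendritic cells it was -0.13 for RARα-KO and -0.52 for RARα-TG, the latter on 4 cells, and in Siglech dendritic cells -0.07 and 0.31.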
